A study of Mus musculus with 6 samples.

Results

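Gdf5 and 9 other genes of the bone morphogenetic protein (BMP) pathway were followed in biceps muscle that had lost its nerve shortly after birth. The 10 genes were chosen by name, and each was found as 1 row of the 13105 genes in the deposited expression table. They are the ligands Gdf5 and Bmp4, the receptors Bmpr1a and Bmpr2, the signal carriers Smad1 and Smad5, the inhibitor Smad6, and the target genes Id1, Id2 and Id3. The denervated group held 3 biceps muscles of CD-1 mice from Charles River in which the C5-T1 roots of the brachial plexus had been excised on one side on postnatal day 5. The control group held the contralateral biceps of the same 3 mice. All 6 muscles were harvested whole on postnatal day 26, 3 weeks after the injury, so both groups came from injured animals. The design text contrasts postnatal muscle growth in the control muscle with arrested growth leading to contracture in the denervated one.

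BMP ligands bind a pair of type I and type II receptors at the cell surface, and the activated type I receptor phosphorylates Smad1, Smad5 and Smad9. These join Smad4, enter the nucleus and switch on target genes, among which the Id genes and the inhibitory Smads are the classic readouts. Id proteins bind E proteins and keep them from pairing with myogenic factors such as MyoD, and in adult mouse muscle BMP signalling is known to limit the loss of mass that follows denervation.

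Values are in TPM, a length-normalized share of a library's transcripts that sums to a fixed total, recovered from deposited log2 values that were read as log2(TPM + 1). The files hold no read counts, so the depth behind a value is unknown, although the labels state 35 to 40 M reads of 75 bases as the least sequenced. The listed genes made up 77.3% to 80.3% of the full TPM total in denervated libraries, against 68.8% to 70.4% in control libraries. The median of all 12268 genes tested was higher in denervated muscle by 0.71 on the deposited log2 scale, and by 0.01 after the libraries were scaled to a common median gene (median-of-ratios scaling). Each gene was therefore read on both scales, and "rose" or "fell" is used only for a gene that passed the limma test at an adjusted p under 0.05 in the same direction on both. As a check of the tissue, 7 muscle fibre genes summed to 16673 to 21440 TPM in denervated libraries and to 16593 to 18096 TPM in control libraries, or, after scaling, to 13098 to 14156 in denervated and 22929 to 24098 in control libraries. Of the 7, Acta1, Ckm and Pygm fell, where 4.5% of all tested genes did. The other 4, Mb, Des, Ttn and Neb, were called higher on the deposited scale (69.9% of all tested genes) and not called after scaling. No marker of 10 cell type lists was listed at 0 in a library, while the satellite cell marker Calcr and the Schwann cell markers Prx and Sox10 had no row. In whole muscle, fewer cells of a type and less RNA per cell cannot be told apart.

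Of the 10 genes 9 were tested, since Smad6 was too low, and of these 8 were called higher on the deposited scale, where 69.9% of all 12268 tested genes were higher. A higher deposited value is thus common to most genes of the table. On both scales 3 of the 9, Gdf5, Id2 and Id3, were called higher, where 15.7% of all tested genes were, and 0 were called lower, where 4.5% were. After scaling 2 of the 9, Bmpr1a and Bmpr2, were called lower, where 18.6% of all tested genes were. The median log2 fold change of the 9 was 1.04 on the deposited scale and 0.27 after scaling, beside 0.71 and 0.01 for all tested genes. Groups did not overlap, with denervated higher, for 8 of the 9 in TPM (71.4% of tested genes) and for 4 of the 9 after scaling (24.3%). They did not overlap, with denervated lower, for 0 of the 9 in TPM (4.96%) and for 3 of the 9 after scaling (24.4%). Gdf5 entered the 9 through its denervated libraries alone, since no control library reached the 1 TPM of the filter, and so had to differ. The counts of higher genes and the medians include it.

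Promoter sequences are shown for Id2 and Id3, the targets among the 10 genes that rose. Each is the 250 bases before the annotated transcript start, from RefSeq on GRCm38.p6, written 5′ to 3′ on the strand of the gene. That of Id2 lies at chr12:25096093-25096342 on the minus strand and that of Id3 at chr4:136143572-136143821 on the plus strand. Both windows lie inside the gene bounds of the GENCODE M21 annotation, which starts either gene further upstream. Capitals mark matches to the motifs searched for on both strands.
Id2: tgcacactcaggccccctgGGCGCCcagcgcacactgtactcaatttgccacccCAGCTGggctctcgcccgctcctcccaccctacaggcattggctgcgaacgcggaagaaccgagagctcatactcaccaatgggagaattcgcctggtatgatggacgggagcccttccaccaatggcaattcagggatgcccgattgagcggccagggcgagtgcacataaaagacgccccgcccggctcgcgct
Id3: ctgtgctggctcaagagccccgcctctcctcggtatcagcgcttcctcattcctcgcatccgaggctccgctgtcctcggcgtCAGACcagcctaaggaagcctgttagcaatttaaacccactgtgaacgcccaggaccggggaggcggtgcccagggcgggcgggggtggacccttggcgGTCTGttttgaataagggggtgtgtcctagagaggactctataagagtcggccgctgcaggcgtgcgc
The motifs were GGCGCC, a GC-rich element read by Smad1 and Smad5, CAGAC, a Smad element, CANNTG, the E box bound by E proteins with myogenic factors, and CAGCTG, one form of that E box. The Id2 window held 1 GGCGCC, which began 231 bases before the start, and 1 CAGCTG, which counts as a CANNTG too and began 196 bases before it. The Id3 window held CAGAC at 167 bases before the start and its reverse complement at 68 bases, and no GGCGCC or E box. Among 32851 RefSeq promoter windows of the same length, 9.586% held GGCGCC, 42.19% CAGAC, 66.22% CANNTG and 13% CAGCTG. The GC-rich element also stood in the windows of Bmpr1a, Bmpr2 and 1 of 3 windows of Smad5, none of which rose, and in none of those of Bmp4, Smad1 and Smad6. Gdf5 and Id1 had no entry in the promoter table.

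Gdf5 is a BMP family ligand best known for its part in joint formation, and in mouse it is a ligand tied to keeping the mass of denervated muscle. It lies on chromosome 2 (155941023 to 155945367, minus strand, GRCm38). Gdf5 measured 6.98, 5.43 and 5.98 TPM in the denervated muscles of mice 1, 2 and 3, against 0.163, 0.169 and 0.194 TPM in their control muscles. The groups lay far apart, and no control library reached 1 TPM. The group means were 6.13 ± 0.787 TPM in denervated and 0.175 ± 0.0163 TPM in control muscle (SD, n = 3 each), a ratio of 35.0, or 18.6 after scaling. Within mice 1, 2 and 3 the ratio was 42.9, 32.1 and 30.9. Gdf5 rose by 2.59 ± 0.16 (log2 fold change with SE, limma adjusted p = 4.84e-06) on the deposited scale and by 2.13 ± 0.11 (limma adjusted p = 2.38e-05) after scaling. The log2 fold change of TPM + 1 understates a gene this low in control muscle, and with 0.1 in place of 1 it was 4.49. The gene passed the filter on low values, TPM of at least 1 in at least 3 libraries, through its denervated libraries alone, so it had to differ.

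In denervated libraries the range of Gdf5 overlapped that of Bmp4, and 53.4% of the genes in the table had a higher mean TPM. In control libraries Gdf5 was below all 9 other genes of the set, and 99.0% of the genes in the table had a higher mean. In the authors' deposited table Gdf5 and Id2 are the 2 members on the list of 336 genes given as up, all with a log2 fold of at least 2.00, and 0 members are on the list of 21 given as down. An opposite-strand gene, Gm15557, covers 936 bases, or 40.3%, of the exonic bases of Gdf5, and 39.7% of the 31-base words of Gdf5 transcripts occur in another gene as well. Gm15557 has no row in the table and the labels name no strand setting, so how reads were split between the 2 genes is uncertain.

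Bmp4, a ligand that also acts through Bmpr1a and Bmpr2, measured 8.95, 7.03 and 4.48 TPM in denervated muscle of mice 1, 2 and 3, against 4.49, 4.77 and 3.39 TPM in control muscle. The groups overlapped, since denervated muscle of mouse 3 lay just below control muscles 1 and 2, but each mouse had the higher value on its denervated side. The log2 fold change was 0.55 ± 0.23 on the deposited scale (limma adjusted p = 0.0515) and -0.20 ± 0.18 after scaling (limma adjusted p = 0.422). With the mouse as a block the deposited difference passed at an adjusted p of 0.0192 in limma, and scaled it did not, at 0.229. Without denervated replicate 3, without control replicate 2, or without mouse 3 the deposited difference passed as well, with limma adjusted p-values of 0.00803, 0.0463 and 0.0369.

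**Figure D1:**
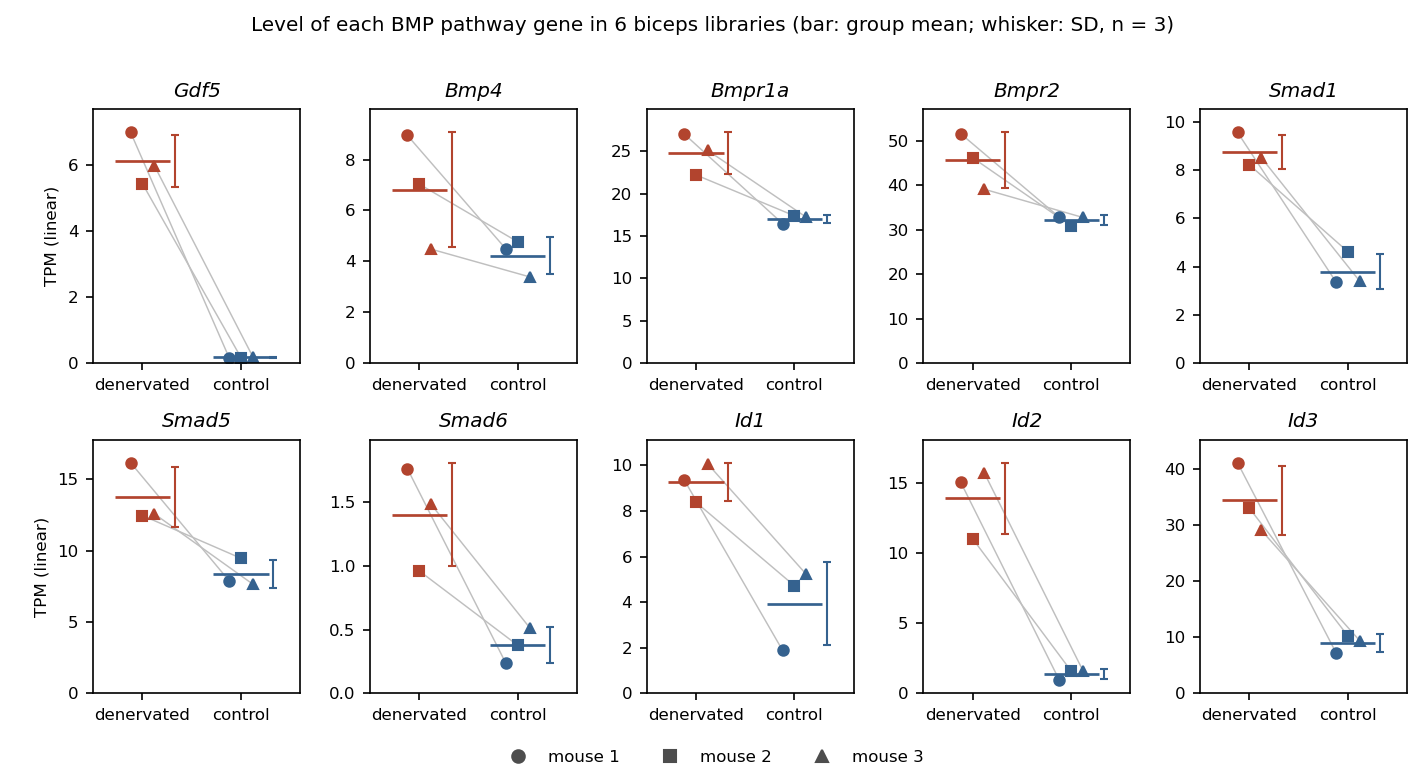
Level of each of the 10 genes in TPM (linear axis from 0) in denervated and control biceps. Symbols mark mice 1 to 3, grey lines join the 2 muscles of a mouse, bars give group means and whiskers the SD (n = 3). In TPM the denervated and control values stand apart, with denervated higher, in every panel except that of Bmp4. The same holds for 71.4% of all tested genes. After scaling, which is not drawn here, Id1 overlaps too, and Bmpr1a, Bmpr2 and Smad5 stand apart with denervated lower. The Gdf5 values of the control muscles all lie under 0.2 TPM.

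The receptors were the most abundant signalling members in control muscle, and their direction depended on the scale. Bmpr2, the type II receptor dedicated to BMPs, measured 51.5, 46.1 and 39.0 TPM in denervated muscle of mice 1, 2 and 3, against 32.8, 30.8 and 32.7 TPM in control muscle. Bmpr1a, a type I receptor for Bmp4 and other BMPs, measured 27.0, 22.2 and 25.1 TPM in denervated muscle, against 16.5, 17.4 and 17.2 TPM in control muscle. For both genes every denervated value lay above every control value in TPM, and every one lay below after scaling. Bmpr1a had a log2 fold change of 0.51 ± 0.14 on the deposited scale (limma adjusted p = 0.00833) and -0.35 ± 0.10 after scaling (limma adjusted p = 0.0297). Bmpr2 had 0.48 ± 0.15 on the deposited scale (limma adjusted p = 0.0137) and -0.39 ± 0.11 after scaling (limma adjusted p = 0.0265).

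Neither receptor kept the scaled call under every alternative. With quantile normalization in place of median-of-ratios scaling neither was called (limma adjusted p of 0.111 for Bmpr1a and 0.0974 for Bmpr2), so the lower call rests on one way of scaling. For Bmpr1a it was lost without denervated replicate 1 or 2, control replicate 1 or 3, or any 1 mouse, with limma adjusted p-values of 0.0635 to 0.175. For Bmpr2 it was lost without denervated replicate 1 or 3, control replicate 1 or 3, or mouse 1 or 3, with limma adjusted p-values of 0.0775 to 0.219. The deposited call was lost without mouse 3 for Bmpr1a (limma adjusted p = 0.083), and without mouse 1 or mouse 2 for Bmpr2 (0.0569 and 0.0774). The log2 ratio of Bmpr1a to Bmpr2, which no scaling can move, averaged -0.87 ± 0.21 in denervated libraries and -0.92 ± 0.08 in control libraries (SD, n = 3 each). The 2 ranges overlapped, and the difference of 0.04 had an exact permutation p of 0.9 (two-sided).

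**Figure D2:**
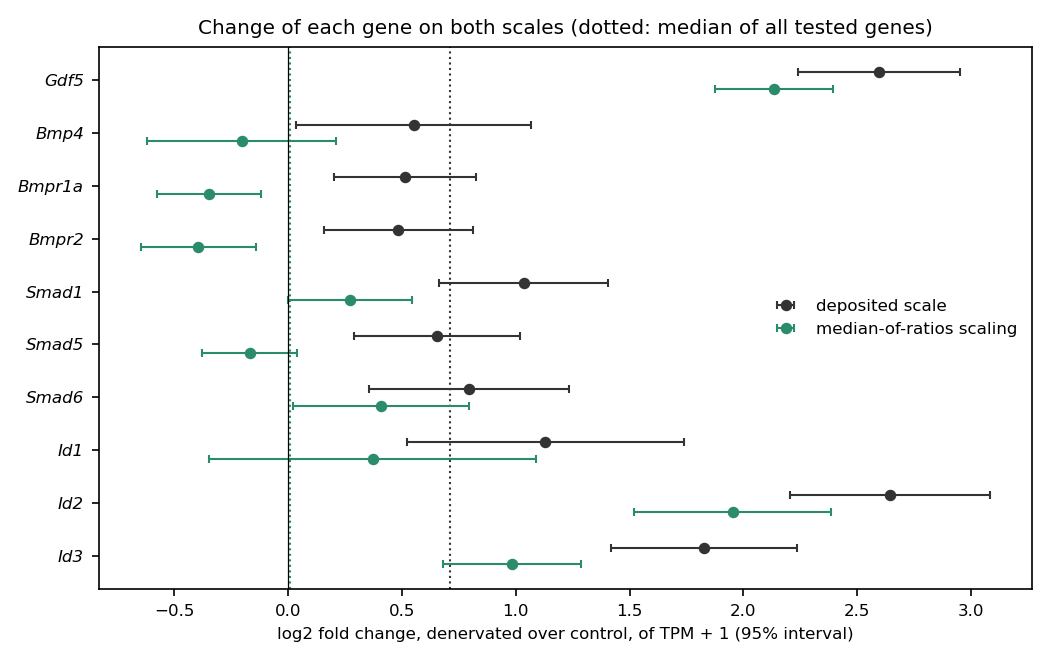
Log2 fold change of TPM + 1, denervated over control, for each of the 10 genes, with 95% intervals from limma, on the deposited scale (dark) and after median-of-ratios scaling (green). Dotted lines give the median of all tested genes, 0.71 and 0.01. Gdf5, Id2 and Id3 lie right of both medians on both scales, while Bmpr1a and Bmpr2 lie right of 0 on the deposited scale and left of it after scaling. Smad6 is shown from the fit with no filter.

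Smad1 and Smad5 carry the signal of the receptors to the nucleus. Smad1 measured 9.56, 8.21 and 8.52 TPM in denervated muscle of mice 1, 2 and 3, against 3.36, 4.61 and 3.39 TPM in control muscle. Smad5 measured 16.1, 12.5 and 12.6 TPM in denervated muscle, against 7.88, 9.46 and 7.65 TPM in control muscle. The groups were apart for both genes in TPM, and after scaling they were apart in opposite directions, with Smad1 higher and Smad5 lower in denervated muscle. Smad1 had a log2 fold change of 1.04 ± 0.17 on the deposited scale (limma adjusted p = 0.000593) and 0.27 ± 0.11 after scaling (limma adjusted p = 0.11). Without control replicate 2 the scaled value was 0.36 with a limma adjusted p of 0.0486. Smad5 had 0.65 ± 0.16 on the deposited scale (limma adjusted p = 0.00552) and -0.17 ± 0.09 after scaling (limma adjusted p = 0.187).

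Smad1 made up a larger share of the pair in denervated muscle. It held 39.1% ± 1.69 of the summed TPM of Smad1 and Smad5 in denervated libraries and 31.1% ± 1.49 in control libraries (SD, n = 3 each). The log2 ratio of Smad5 to Smad1 was 0.64 ± 0.10 in denervated and 1.15 ± 0.10 in control libraries, and it was lower on the denervated side in 3 of 3 mice. The difference of -0.51 had an exact permutation p of 0.1 (two-sided), the smallest that 3 against 3 libraries can give, and 0.18 after Benjamini-Hochberg adjustment over the 9 ratios computed. With 1 TPM added to both genes the difference was -0.38.

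Smad6 blocks the receptors and Smad1, and is itself switched on by BMP signalling. It measured 1.76, 0.962 and 1.48 TPM in denervated muscle of mice 1, 2 and 3, against 0.237, 0.378 and 0.517 TPM in control muscle. Every denervated value lay above every control value, but only 2 libraries reached 1 TPM, so Smad6 was not tested with the filter. With no filter it had a log2 fold change of 0.79 ± 0.19 on the deposited scale (limma adjusted p = 0.00592) and 0.41 ± 0.16 after scaling (limma adjusted p = 0.101). In that fit 67.8% of the 13105 genes were called higher on the deposited scale and 14.6% after scaling. The ratio of Smad6 to Smad1 changed direction with the handling of low values, at 0.70 on the log2 scale and -0.24 with 1 TPM added to both genes, and it overlapped between groups.

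Of the Id genes, Id2 and Id3 rose in denervated muscle and Id1 was called on the deposited scale alone. Id2 (chromosome 12, 25093799 to 25097140, minus strand, GRCm38) measured 15.0, 11.01 and 15.7 TPM in denervated muscle of mice 1, 2 and 3, against 0.940, 1.59 and 1.61 TPM in control muscle. The groups were far apart, with a ratio of group means of 10.1, or 5.39 after scaling. Id2 rose by 2.64 ± 0.19 on the deposited scale (limma adjusted p = 1.19e-05) and by 1.95 ± 0.18 after scaling (limma adjusted p = 0.000247). Over the table, 0.9004% of genes had a higher scaled change than Id2, and 0.710% had one higher than Gdf5.

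Id3 (chromosome 4, 136143497 to 136145755, plus strand, GRCm38) was the most abundant Id gene in all 6 libraries. It measured 41.1, 32.96 and 29.1 TPM in denervated muscle of mice 1, 2 and 3, against 7.22, 10.2 and 9.39 TPM in control muscle. No values overlapped, also after scaling, where they were 22.8 to 25.9 in denervated and 9.98 to 13.5 in control libraries. Id3 rose by 1.83 ± 0.18 on the deposited scale (limma adjusted p = 6.2e-05) and by 0.98 ± 0.13 after scaling (limma adjusted p = 0.00116).

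Id1, often the first gene read out for BMP activity, measured 9.37, 8.38 and 10.1 TPM in denervated muscle of mice 1, 2 and 3, against 1.88, 4.72 and 5.22 TPM in control muscle. The groups were apart in TPM, with control muscle of mouse 1 well below the other 2 controls, and they overlapped after scaling. The log2 fold change was 1.13 ± 0.27 on the deposited scale (limma adjusted p = 0.0046) and 0.37 ± 0.31 after scaling (limma adjusted p = 0.394). The scaled value rested on 1 library, since it was 0.01 without control replicate 1. The interval after scaling, -0.35 to 1.09, reaches past the scaled change of Id3.

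The make-up of the Id pool differed between the groups. Summed over Id1, Id2 and Id3, the level was 52.3 to 65.4 TPM in denervated and 10.05 to 16.5 TPM in control libraries, and after scaling 40.9 to 43.0 in denervated and 13.9 to 23.3 in control libraries. Id2 held 24.2% ± 3.94 of that sum in denervated and 9.64% ± 0.290 in control libraries (SD, n = 3 each). Id1 held 16.2% ± 2.03 in denervated and 26.5% ± 6.94 in control libraries, and these shares did not overlap either. Id3 held 59.6% ± 5.67 in denervated and 63.9% ± 7.22 in control libraries, with overlap. The log2 ratio of Id1 to Id2 was -0.57 ± 0.16 in denervated and 1.42 ± 0.37 in control libraries, so that Id2 exceeded Id1 in every denervated library and Id1 exceeded Id2 in every control library. Its difference of -1.99, and that of -1.41 for Id3 to Id2, each had an exact permutation p of 0.1 (two-sided), again the smallest possible, and 0.18 after adjustment over the 9 ratios. With 1 TPM added to both genes of a pair, the differences were -1.51 and -0.82.

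**Figure D3:**
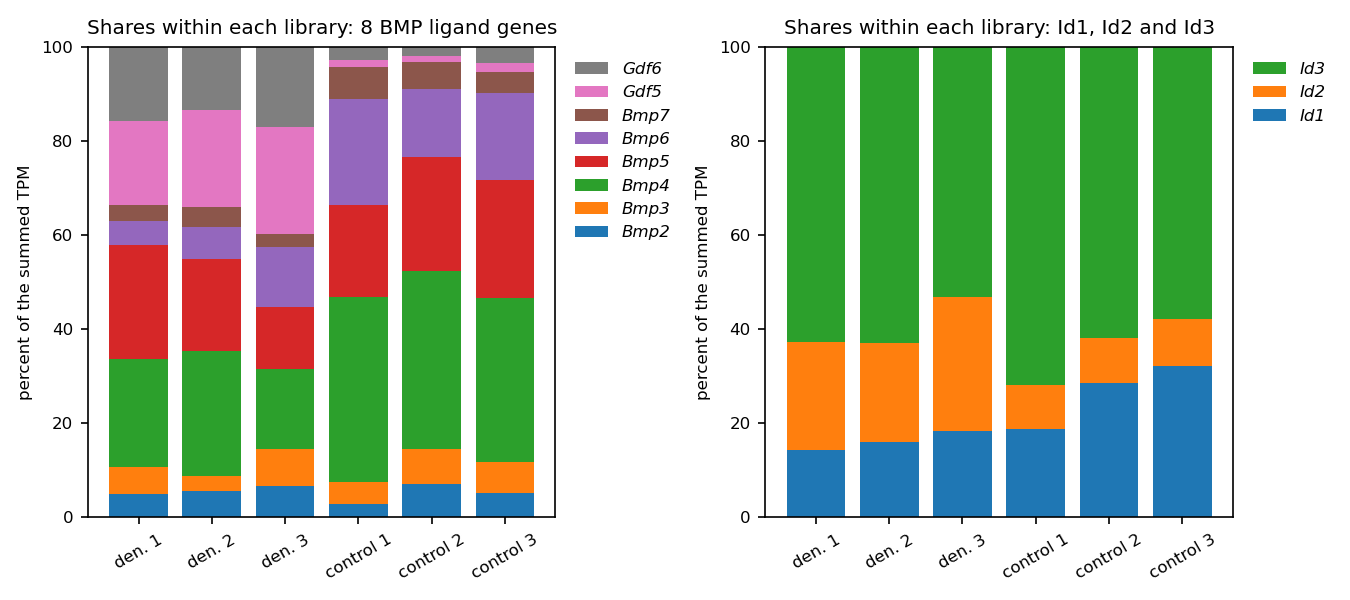
Share of each gene in the summed TPM of the 8 BMP ligand genes with a row (left) and of Id1, Id2 and Id3 (right), as stacked percent of each library, denervated 1 to 3 and then control 1 to 3. Gdf5 averaged 20.4% of the ligand sum in denervated and 1.59% in control libraries, and Id2 averaged 24.2% of the Id sum in denervated and 9.64% in control libraries.

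The order of levels shifted around the Id genes and Gdf5. In denervated libraries the mean TPM ran from Bmpr2 through Id3, Bmpr1a, Id2, Smad5, Id1, Smad1, Bmp4 and Gdf5 to Smad6. In control libraries it ran from Bmpr2 through Bmpr1a, Id3, Smad5, Bmp4, Id1, Smad1, Id2 and Smad6 to Gdf5. The ranges of the neighbours Bmpr2 and Id3, Id2 and Smad5, Id1 and Smad1, Smad1 and Bmp4, and Bmp4 and Gdf5 overlapped in denervated libraries. Those of Id3 and Smad5, Bmp4 and Id1, and Id1 and Smad1 overlapped in control libraries.

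**Figure D4:**
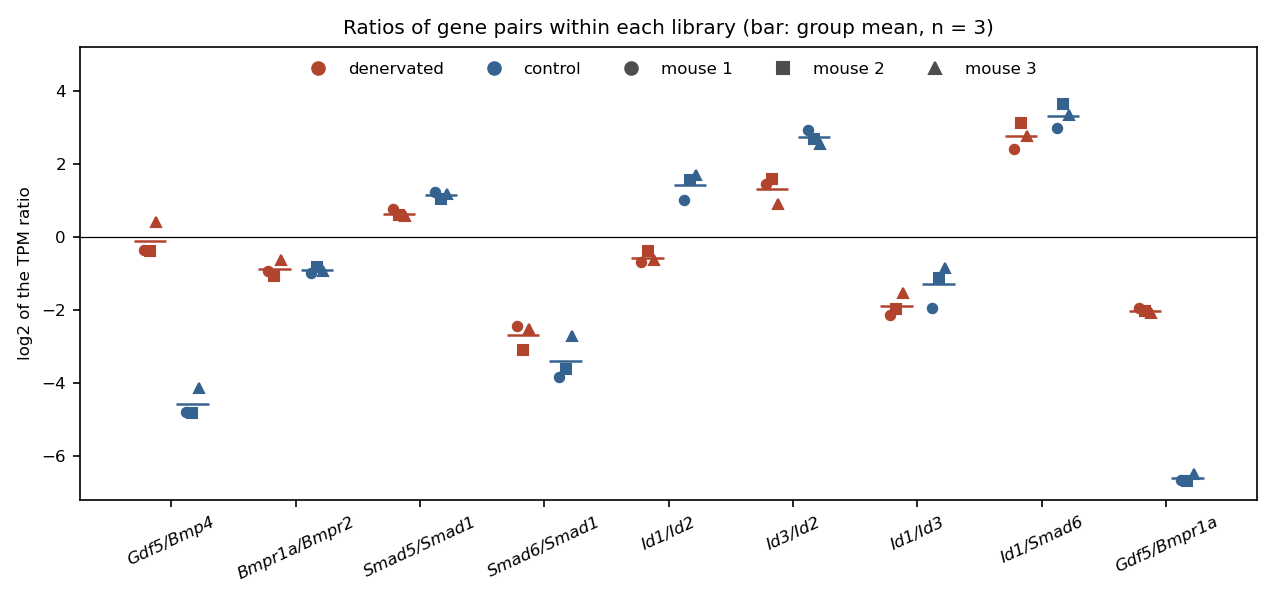
Log2 ratio of TPM between 9 pairs of genes within each library, with denervated libraries left of control libraries in each pair, symbols for mice 1 to 3 and bars for group means (n = 3). The ratios of Gdf5 to Bmp4 and to Bmpr1a lie more than 4 log2 units higher in denervated libraries, those of Smad5 to Smad1 and of Id1 and Id3 to Id2 lie lower, and the other 4 overlap.

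The level of Gdf5 relative to Bmp4 and to a receptor differed widely between the groups. The log2 ratio of Gdf5 to Bmp4 averaged -0.11 ± 0.45 in denervated and -4.58 ± 0.39 in control libraries (SD, n = 3 each). That of Gdf5 to Bmpr1a averaged -2.02 ± 0.06 in denervated and -6.61 ± 0.11 in control libraries. The differences, 4.47 and 4.59, each had an exact permutation p of 0.1 (two-sided), the smallest possible, and 0.18 after adjustment over the 9 ratios, and with 1 TPM added to both genes they were 2.04 and 2.08. Gdf5 passed the filter through denervated libraries alone and had to differ, so these ratios add no separate evidence. Its control values were low, at 0.163 to 0.194 TPM, and Gm15557 covers 40.3% of its exonic bases.

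The other genes of the pathway were taken from lists by role. Beside the 10 they number 67, of which 53 had a row and 48 were tested. Of the 48, 20 rose (15.7% of all tested genes), 0 fell (4.5%), and 6 were called lower after scaling alone (18.6% lower after scaling). Their median log2 fold change was 1.06 on the deposited scale and 0.37 after scaling, beside 0.71 and 0.01 for all tested genes. Bmp2, Gdf6, Bmpr1b, Chrd, Chrdl2, Runx2 and Hamp passed the filter through denervated libraries alone and so had to differ, and these counts are not evidence about the lists.

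Of 13 ligand genes 8 had a row and 6 were tested, and 2 rose, Gdf5 and Gdf6 (15.7% of all tested genes). Gdf6, a close relative of Gdf5 in the family, measured 6.12, 3.57 and 4.45 TPM in denervated muscle of mice 1, 2 and 3, against 0.313, 0.238 and 0.327 TPM in control muscle. Like Gdf5, it stayed under 1 TPM in every control library and passed the filter through denervated libraries alone. Gdf6 rose by 2.12 ± 0.19 on the deposited scale (limma adjusted p = 3.58e-05) and by 1.64 ± 0.14 after scaling (limma adjusted p = 0.000144). Gdf5 and Gdf6 together with 6 Bmp genes summed to 26.2 to 38.9 TPM in denervated and 9.75 to 12.6 TPM in control libraries. After scaling the sums were 20.6 to 24.4 in denervated and 14.0 to 15.9 in control libraries. Of these genes Bmp5 shares 46.2% of its 31-base words with other genes. Gdf5 held 20.4% ± 2.45 of that sum in denervated and 1.59% ± 0.349 in control libraries (SD, n = 3 each). Bmp4 held 22.2% ± 4.76 in denervated and 37.3% ± 2.34 in control libraries. Bmp2, a ligand close to Bmp4, averaged 1.74 TPM in denervated and 0.581 TPM in control muscle and was called on the deposited scale alone (scaled limma adjusted p = 0.133, and 0.0368 without control replicate 2). Bmp7 averaged 1.04 TPM in denervated and 0.646 TPM in control muscle and was too low to be tested.

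Of 11 receptors and co-receptors 10 were tested, and Acvr2a and Bmpr1b rose (15.7% of all tested genes). Bmpr1a, Bmpr2 and Eng were called lower after scaling alone (18.6% of all tested genes were lower after scaling). Acvr2a, a type II receptor shared by activins and BMPs, measured 42.01, 32.9 and 27.3 TPM in denervated muscle of mice 1, 2 and 3, against 9.38, 11.02 and 9.38 TPM in control muscle. It rose by 0.81 ± 0.10 after scaling (limma adjusted p = 0.00103). Bmpr1b, the type I receptor that Gdf5 prefers, averaged 2.71 ± 0.4205 TPM in denervated and 0.738 ± 0.0296 TPM in control muscle (SD, n = 3 each). It rose by 0.57 ± 0.13 after scaling (limma adjusted p = 0.0161), a call that was lost without both libraries of any 1 mouse (0.0645 to 0.11), and it passed the filter through denervated libraries alone. Acvr1, another BMP type I receptor, had scaled log2 fold change -0.05 (limma adjusted p = 0.726). The most abundant of the list was the co-receptor Hjv, hemojuvelin, which averaged 91.3 TPM in denervated and 62.4 TPM in control muscle, with log2 fold changes of 0.52 on the deposited scale (limma adjusted p = 0.0244, and 0.059 to 0.178 without denervated replicate 1 or 2, control replicate 1, mouse 1 or mouse 2) and -0.37 after scaling (limma adjusted p = 0.0743).

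Eng, endoglin, a co-receptor of endothelial cells that was chosen after its values were seen, had a log2 fold change of 0.20 on the deposited scale (limma adjusted p = 0.312) and -0.63 after scaling (limma adjusted p = 0.00348). Of 8 endothelial markers 0 were called on the deposited scale, where 69.9% of all tested genes were called higher and 4.5% lower. After scaling 6, all but Cldn5 and Vwf, were called lower, where 18.6% of all tested genes were. The median scaled change over the 8 was -0.86. They summed to 62.1 to 91.6 TPM in denervated and 67.5 to 90.6 TPM in control libraries. After scaling the sums were 48.8 to 57.3 in denervated and 95.8 to 114.7 in control libraries. Since endothelial cells also express Id1, Id3, Bmpr2 and Smad6, these values stand beside those of the 4 genes, and their part in them was not tested.

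Of 18 antagonist genes 13 had a row and 12 were tested. Fst, Chrd, Fstl3, Chrdl1, Chrdl2 and Bmper rose (15.7% of all tested genes). Bmper lost its scaled call without all single libraries but control replicate 2 and without mouse 1 or mouse 3 (limma adjusted p-values of 0.0764 to 0.208), and Chrdl2 without mouse 2 or mouse 3 (0.052 and 0.101). The largest change was that of Fst, follistatin, which binds activins and some BMPs. Fst measured 107, 60.9 and 55.3 TPM in denervated muscle of mice 1, 2 and 3, against 4.85, 5.77 and 4.76 TPM in control muscle, and rose by 2.73 ± 0.16 after scaling (limma adjusted p = 3.61e-05). Chrd, chordin, which binds Bmp2 and Bmp4, averaged 4.44 TPM in denervated and 0.590 TPM in control muscle, and rose by 1.24 ± 0.16 after scaling (limma adjusted p = 0.00109), having passed the filter through denervated libraries alone. Fstl3, which binds activins and myostatin, rose by 0.97 after scaling, a call lost without mouse 1 (limma adjusted p = 0.0974), and 46.7% of its 31-base words occur in another gene. Chrdl1, a chordin-like BMP binder, rose by 0.65 after scaling, a call lost without mouse 1 or mouse 3 (limma adjusted p-values of 0.0714 and 0.0764). Fstl1, the most abundant, averaged 92.3 TPM in denervated and 61.7 TPM in control muscle, and its scaled log2 fold change was -0.29 (limma adjusted p = 0.334). Crim1, of the same list and named after its values were seen, was called lower after scaling alone (18.6% of all tested genes were lower after scaling). Its log2 fold change was 0.0099 on the deposited scale and -0.62 after scaling (limma adjusted p = 0.00371). Noggin and gremlin 1, other BMP antagonists, had no row.

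Of 13 Smads and intracellular inhibitors 11 were tested. Smad3 alone rose (15.7% of all tested genes), while 4 were called lower after scaling alone (18.6% lower after scaling). Smurf1, Smurf2, Ski and Ppm1a, inhibitors of Smad signalling that were named after their values were seen, were called lower after scaling alone. On the deposited scale Smurf2 was called higher, with a log2 fold change of 0.48 (limma adjusted p = 0.0141), where 69.9% of all tested genes were. Smurf1, Ski and Ppm1a were not called on that scale. Of the 4, Ppm1a kept the scaled call without any 1 library or mouse, while Smurf1, Smurf2 and Ski lost it under several such omissions, and Smurf1 also with the mouse as a block (limma adjusted p = 0.0594). Smad3, which carries activin and TGF-beta rather than BMP signals, measured 53.7, 43.1 and 46.9 TPM in denervated muscle of mice 1, 2 and 3, against 13.8, 16.1 and 15.6 TPM in control muscle. It had the highest mean of the list over all 6 libraries together, although Ppm1a was higher in control muscle at 24.2 TPM, and it rose by 0.73 ± 0.09 after scaling (limma adjusted p = 0.00107). Smad4, the shared partner of all receptor Smads, averaged 24.0 TPM in denervated and 11.1 TPM in control muscle, with a scaled log2 fold change of 0.18 (limma adjusted p = 0.255). Smad7, an inhibitor like Smad6 that acts on both branches, had a scaled log2 fold change of 0.07 (limma adjusted p = 0.765). Smad9 had no row.

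**Figure D5:**
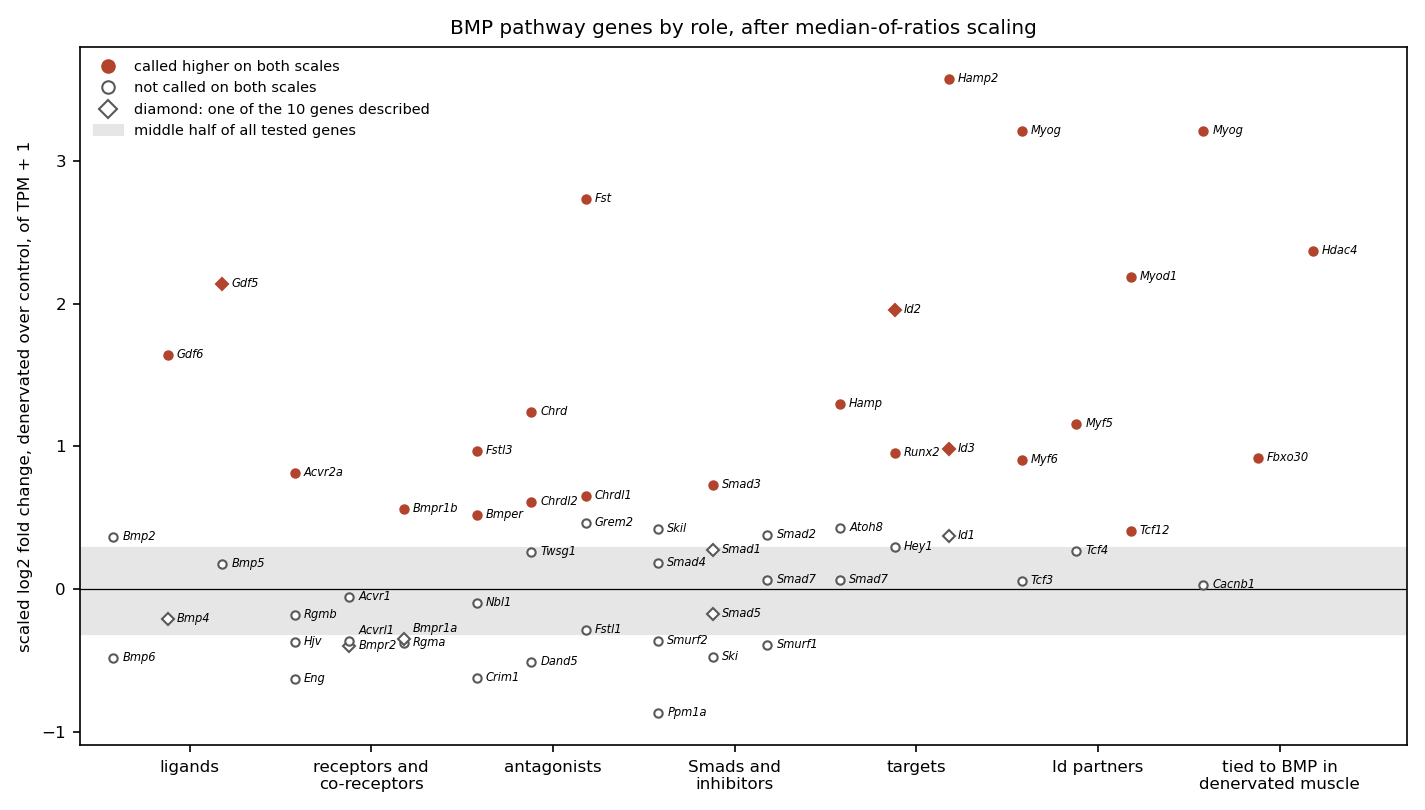
Scaled log2 fold change of TPM + 1, denervated over control, for every tested gene of the 7 lists, by role. Filled symbols are genes called higher on both scales, diamonds are members of the set of 10, and the grey band spans the quartiles of all tested genes, -0.31 to 0.29. Gdf5 and Gdf6 stand above the other ligands, 6 of the 10 receptors lie below the band, and Hamp2, Id2 and Hamp lead the targets.

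Of 15 BMP target genes 11 had a row and 9 were tested. Id2, Id3, Hamp2, Hamp and Runx2 rose (15.7% of all tested genes). Runx2 passed the filter through denervated libraries alone, and without mouse 1 its scaled limma adjusted p was 0.0522. Id1, Smad7, Hey1 and Atoh8 were called higher on the deposited scale alone, Hey1 and Atoh8 being named after their values were seen. Hamp2 and Hamp, the hepcidin genes, are BMP targets best known from liver. Hamp2 measured 1016, 300.3 and 646 TPM in denervated muscle of mice 1, 2 and 3, against 24.1, 26.9 and 25.7 TPM in control muscle, and rose by 3.57 ± 0.33 after scaling (limma adjusted p = 0.000233). Hamp averaged 3.83 ± 2.69 TPM in denervated and 0.304 ± 0.196 TPM in control muscle (SD, n = 3 each), and rose by 1.3 ± 0.30 after scaling (limma adjusted p = 0.0137, and 0.0847 without mouse 2). It too passed the filter through denervated libraries alone. The 2 genes share 34.5% of the 31-base words of Hamp2 and 33.7% of those of Hamp with other genes, each mostly with the other, so the split of reads between them is uncertain.

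All 7 Id partners, the E proteins and myogenic factors, were called higher on the deposited scale (69.9% of all tested genes), and Myog, Myod1, Myf5, Myf6 and Tcf12 rose (15.7%). Tcf12, an E protein gene, lost its scaled call without any 1 denervated library or any 1 mouse (limma adjusted p-values of 0.0514 to 0.137). Myog, myogenin, measured 123, 80.8 and 92.0 TPM in denervated muscle of mice 1, 2 and 3, against 5.19, 5.58 and 4.25 TPM in control muscle, and rose by 3.21 ± 0.11 after scaling (limma adjusted p = 8.91e-06). Myod1, the gene of MyoD, averaged 49.1 TPM in denervated and 5.22 TPM in control muscle and rose by 2.19 ± 0.10 after scaling (limma adjusted p = 1.81e-05). Myf5 and Myf6, of which Myf6 had the highest mean of the list over all 6 libraries together, rose by 1.16 and 0.90 after scaling. Tcf4, the most abundant E protein gene, which was named after its values were seen, averaged 60.9 TPM in denervated and 26.7 TPM in control muscle, with a scaled log2 fold change of 0.27 (limma adjusted p = 0.0882). The 3 tested satellite cell markers, Pax7, Myf5 and Chrdl2, were called higher on both scales (15.7% of all tested genes), of which Pax7 and Chrdl2 passed the filter through denervated libraries alone and so had to differ. They summed to 8.84 to 12.8 TPM in denervated and 2.00 to 2.53 TPM in control libraries. Myf5 belongs to both lists and Chrdl2 to the antagonists, and the part of satellite cells in these values was not tested.

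Of the 4 genes tied to BMP signalling in denervated muscle 3 rose (15.7% of all tested genes), namely Myog, Hdac4 and Fbxo30. Myog is one of the Id partners as well. Fbxo30, a ubiquitin ligase that BMP signalling holds down in mouse muscle, measured 33.2, 24.9 and 25.7 TPM in denervated muscle of mice 1, 2 and 3, against 7.39, 8.06 and 7.06 TPM in control muscle. It rose by 0.92 ± 0.08 after scaling (limma adjusted p = 0.000184), alongside Gdf5, Id2 and Id3. Hdac4, a histone deacetylase that responds to the loss of the nerve, averaged 55.9 TPM in denervated and 5.17 TPM in control muscle and rose by 2.37 ± 0.10 after scaling (limma adjusted p = 1.47e-05). The remaining gene of the list, Cacnb1, a calcium channel subunit, had a scaled log2 fold change of 0.03 (limma adjusted p = 0.845).

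The tested genes whose scaled profile over the 6 libraries lay nearest to that of Gdf5 were Gldn, Dlg2, Arfgap3, Serinc5 and Acsl3, at Euclidean distances of 0.161, 0.166, 0.172, 0.229 and 0.231 between mean-centred log2(TPM + 1) values. Gldn, the nearest, measured 12.8, 10.3 and 9.84 TPM in denervated muscle of mice 1, 2 and 3, against 0.761, 0.743 and 0.680 TPM in control muscle. Dlg2 averaged 8.01 TPM in denervated and 0.500 TPM in control muscle. The likeness is a description over 6 libraries in 2 groups, where a shared difference between the groups sets most of the distance.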

How the data were processed

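Per the labels' protocols, biceps RNA went through Ovation RNA-Seq V2 amplification and Nextera XT library preparation. The authors deposited 1 table of log2 values for 13105 genes in 6 libraries, with their own log2 fold changes, p-values and adjusted p-values, per the file headers. Kallisto 0.42.1 and mm10 are named in the submitters' processing notes. The transcript-to-gene step, the strand setting and the test behind the deposited p-values are not given in the sources used here. No header names the unit of the deposited log2 values, which were read as log2(TPM + 1).

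Genes with TPM of at least 1 in at least 3 of 6 libraries were fitted on the log2(TPM + 1) scale by group in limma 3.58.1 under R 4.3.3 (trended eBayes), with Benjamini-Hochberg adjustment over all 12268, on the deposited values and after median-of-ratios scaling (size factors of 1.27 to 1.60 for denervated and 0.697 to 0.789 for control libraries). The script was tested on simulated data. A fold change on this scale understates low genes. Ratios within a library were compared by exact permutation tests over the 6 libraries, which treat them as independent and leave out the pairing by mouse.

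The labels give both muscles of a mouse 1 number, which pairs the libraries, and the mouse as a block was an alternative. Across genes, the deviation of a denervated library from its group mean correlated with that of the same mouse's control library at 0.312, 0.183 and 0.411 for mice 1 to 3. Correlations between libraries of different mice were not computed, so these values do not test the pairing. The samples of a group came from 3 separate mice. The 10 members, the lists, the tests and the alternatives were chosen with earlier results of these data known. Named genes are the 10 members, up to 4 genes a list called on both scales by the size of the scaled change, the most abundant gene of a list, some always named, the 5 nearest to Gdf5, and those said to be chosen after their values were seen. Shared 31-base words were counted in GENCODE M21 transcripts. Hjv is listed in the table under its older symbol Hfe2.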

Additional observations from a re-analysis of the deposited data

How the results depend on the processing

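Gdf5, Id2 and Id3 kept their direction and stayed past the threshold under every alternative run, which were another scaling, pseudocount, filter and variance model, the replicate block, and leaving out each library and each mouse. Gdf5 passed the filter through denervated libraries alone and had to differ, so its calls under the alternatives add no separate evidence. Among the members and pathway genes named above, median-of-ratios scaling turned the sign of Bmp4 (-0.20), Bmpr1a (-0.35), Bmpr2 (-0.39), Smad5 (-0.17), Hjv (-0.37), Acvr1 (-0.055), Fstl1 (-0.29), Eng (-0.63), Smurf1 (-0.39), Smurf2 (-0.36) and Ski (-0.47). Quantile normalization turned the same 11, at -0.21, -0.22, -0.25, -0.12, -0.16, -0.040, -0.062, -0.57, -0.42, -0.29 and -0.41. Crim1, at 0.0099 as deposited and -0.62 after median-of-ratios scaling, turned as well, and its value under quantile normalization is not given. Other tested pathway genes, named here after their values were seen, also turned from above 0 with median-of-ratios scaling. They were Acvrl1 (-0.36), Bmp6 (-0.48), Dand5 (-0.51), Nbl1 (-0.093), Rgma (-0.38) and Rgmb (-0.18), whose values under quantile normalization are not given either. Near 0 after scaling, Smad7 was -0.026 to 0.15 without single libraries (-0.017 without control replicate 2), Acvr1 was -0.087 to 0.010, Cacnb1 was -0.036 to 0.065 (-0.016 without denervated replicate 1), and without mouse 2 Smad7 was -0.11 and Cacnb1 -0.025. As deposited, Ppm1a was -0.15 to 0.076 without single libraries, and 0.048 and 0.087 without mice 2 and 3. The log2 ratio of Bmpr1a to Bmpr2 was -0.077 to 0.13 without single libraries. With 1 TPM added, Smad6 to Smad1 was -0.24 and Id1 to Smad6 was 0.34, in place of 0.70 and -0.56. The cause was not tested.

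Counts of genes called in the whole table moved with scaling. Of the 12268 tested, 8580 were called higher as deposited (69.9%), 1922 after median-of-ratios scaling (15.7%) and 2168 after quantile normalization. Those called lower were 552 (4.5%), 2280 (18.6%) and 2104. A stricter filter, TPM of at least 5 on the deposited scale, tested fewer genes and called 5412 higher. After scaling, leaving out mouse 1 or mouse 3 left fewer samples and gave 938 and 1005 higher and 1322 and 1423 lower. Of the 9 members tested, 8 were called higher as deposited (69.9% of all tested genes) and 3 under either scaling (15.7% after median-of-ratios scaling). Members called lower were 0 as deposited (4.5%), 2 after median-of-ratios scaling (18.6%) and 0 after quantile normalization. The 2 was 0 to 2 without single libraries, 0 without mouse 1 or 3, and 1 without mouse 2. Of the 48 other pathway genes tested, 40 were called higher as deposited (69.9% of all tested genes). After median-of-ratios scaling 20 were (15.7%), and after quantile normalization 22. At TPM of at least 5, where fewer genes were tested, 23 were called higher on the deposited scale. Other pathway genes called lower were 0 as deposited (4.5%) and 6 under either scaling (18.6% after median-of-ratios scaling). With no filter, which tests more genes, 1 was called lower as deposited. The scaled 6 was 3 to 6 without single libraries and 2 without mouse 1 or mouse 3. With the mouse as a replicate block Bmp4 passed on the deposited scale (limma adjusted p = 0.0192) and Smurf1 no longer passed after scaling (0.0594), and no other member or pathway gene named with a change altered its call. Read depth is unknown, so precision at levels under 1 TPM, such as Gdf5 in control muscle, rests on the agreement of 3 libraries.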
